A study of Homo sapiens with 14 samples.

Results

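The p53 target genes are a list of 32 symbols of genes that the transcription factor p53 is known to activate. They were taken across both leukaemia cell lines of the study. The list was chosen with earlier results of these data known. Its shares beside those of all genes therefore describe the list and are not a test of it. Rows were found by symbol for 31 of the 32, of 16336 gene symbols with a row in any table. TIGAR stood under its older symbol C12orf5, and SPATA18 was not analysed here. All 31 genes passed the filter on low counts in each comparison. FAS passed it in the shEZH2 comparison through the shEZH2 libraries alone, and a gene that passes in that way has to differ between the groups.

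The data are 14 libraries of total RNA from 7 groups with 2 libraries each. MV4;11 is an acute leukaemia line of monocytic type with a rearranged MLL gene, and EOL-1 was derived from an eosinophilic leukaemia. In MV4;11 the groups were EV (control), shEZH2 (an RNA hairpin against EZH2), sgEV (control), and sgcMyc_1 and sgcMyc_5 (CRISPR guides 1 and 5 against cMyc). In EOL-1 they were sgEV (control) and sgEZH2 (a guide against EZH2). The labels give every group, the controls included, doxycycline at 1 µg/ml for 4 days, in RPMI medium with serum. EZH2 is the methyltransferase of Polycomb repressive complex 2 and cMyc is a growth-promoting transcription factor. According to the series' title, the study asked how EZH2 acts with cMyc and p300 to activate genes. Each depletion was compared with the control of its own table. The labels do not say whether replicates were separate cultures, or whether lines were clones or pools, so the p-values cover only library-to-library spread, part or all of which could be technical.

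The transcript of EZH2 fell to 13.06% of control with shEZH2 and to 38.26% in EOL-1. The transcript of MYC rose with both guides (log2 fold change 0.40 and 0.32). A transcript level does not check a knockout by guides in either line, and the groups with cMyc guides are called the libraries labelled sgcMyc. Gene counts per library were 15034533 to 16274568 in the shEZH2 table, 13313052 to 15043385 in the sgcMyc table and 24574102 to 30256823 in EOL-1. The mitochondrial share of counts moved with the groups: 2.181 and 2.225% in EV against 2.787 and 2.801% with shEZH2, 2.412 and 2.471% in sgEV against 3.14 to 3.439% with the guides, and 1.047 and 1.062% against 1.135 and 1.145% in EOL-1. All 10 myelomonocytic markers had rows. Their summed level was 1499 to 1528 CPM (counts per 1e+06 counts of a library) in EV and 1661 to 1694 CPM with shEZH2, 1833 to 1858 CPM in sgEV and 4970 to 5372 CPM with the guides, and 922 to 933.6 CPM in EOL-1 sgEV and 2566 to 2595 CPM with sgEZH2. These sums do not show how broad a shift was. The median log2 fold change of the 10 was -0.0897 with shEZH2, 0.14 and 0.0903 with guides 1 and 5, and 0.323 in EOL-1. The largest single values were 1.37, 4.55, 4.44 and 3.76 in that order. Of the 8 eosinophilic markers, EPX, CLC and IL5RA had no row in any table and PRG2 and CCR3 had none in EOL-1. The 3 with a row in EOL-1 (RNASE2, RNASE3 and PDGFRA) summed to 104.2 to 104.7 CPM in sgEV and 134.1 to 140.8 CPM with sgEZH2. In MV4;11 the 4 with a row were PRG2, CCR3, RNASE2 and RNASE3. They summed to 88.5 to 94.4 CPM in EV and 111 to 112.2 CPM with shEZH2. In the sgcMyc table their sum was 69.91 to 71.16 CPM in sgEV and 205.7 to 214.6 CPM with the guides. The sums of the lines cover unlike sets of genes and so cannot say whether EOL-1 stands apart as eosinophilic. Epithelial markers (EPCAM had no row) summed to 17.41 to 17.98 CPM in EV and 15.81 to 16.08 CPM with shEZH2, 3.372 to 4.124 CPM in sgEV and 1.536 to 2.88 CPM with the guides, and at most 0.579 CPM in EOL-1. T cell, erythroid and stromal markers had no rows. The part of these shifts in the results below was not tested.

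p53 is held low in unstressed cells by MDM2, a ubiquitin ligase that is itself a p53 target and so closes a feedback loop. When p53 is stabilised, it raises genes that stop the cell cycle (CDKN1A, which encodes p21), repair DNA (XPC, DDB2), signal death (FAS, TNFRSF10B) and restrain growth (SESN1). p21 in turn lets the DREAM repressor complex lower genes of mitosis. The level of these targets is often read as a sign of p53 activity.

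The sequences that tie the list to p53 are shown for the promoters that hold a match to its binding element, because the members are defined by that factor. RefSeq promoter windows (GRCh38.p14, 250 bases before to 50 after each start) existed for 25 of the 32 symbols, in 41 windows. The element searched was the p53 consensus of 20 letters, a decamer repeated without a spacer, which reads the same on both strands. With at most 2 mismatches, it was found in windows of 5 genes, in capitals here and 5′ to 3′ on the gene's strand.
MDM2: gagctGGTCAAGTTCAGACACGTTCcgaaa
DDB2: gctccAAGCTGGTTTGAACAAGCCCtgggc
FAS: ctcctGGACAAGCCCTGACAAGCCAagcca
AEN: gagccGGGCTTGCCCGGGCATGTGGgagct
PANK1: gtggcGGGCAGGACTGGGCATGCTCagtgg
These stretches lie at chr12:68808918-68808947, chr11:47214964-47214993, chr10:88991304-88991333, chr15:88621301-88621330 and chr10:89645251-89645280 (PANK1 on the minus strand, the others on the plus strand). The DDB2 match has 1 mismatch and the others have 2. The MDM2 match spans bases -94 to -75 from the start and that of FAS bases -122 to -103, while those of AEN, PANK1 and DDB2 lie at -34 to -15, -33 to -14 and -5 to 14. Across all 35116 windows of the same length, 228 (0.649%) held such a match. A match is a description of letters. The windows of CDKN1A and CYFIP2 held none, which says only that these letters are absent there.

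CDKN1A changed differently in the 2 EZH2 comparisons, which differ in line and also in depletion method. In EOL-1 it stood at 51.5 and 53.2 CPM in sgEV and at 165 and 164 CPM with sgEZH2. The groups were far apart, with a log2 fold change of 1.65 ± 0.04 (SE, n = 2 against 2, edgeR adjusted p = 1.5e-15). In MV4;11 it was 48.3 and 47.9 CPM in EV against 48.1 and 51.7 CPM with shEZH2. These values overlapped, and the log2 fold change of 0.05 ± 0.06 did not pass the test (adjusted p = 0.58). The difference of the EZH2 effects, MV4;11 minus EOL-1, was -1.59 ± 0.07 (adjusted p = 3.9e-10). With the guides in MV4;11 CDKN1A stood near its control: 204 and 216 CPM in sgEV, 199 and 207 CPM with guide 1, and 190 and 192 CPM with guide 5. Guide 1 gave -0.05 ± 0.05 (adjusted p = 0.46). Guide 5 gave -0.14 ± 0.05 (adjusted p = 0.047), a call that was lost with DESeq2 (0.155), without either sgEV library (0.0995 and 0.356) and without either guide 1 library (0.0957 and 0.102) and turned to 0.01 (adjusted p = 0.921) when libraries were scaled to spike-in RNA.

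CYFIP2, a partner of the actin-regulating WAVE complex that p53 induces, went the other way. EV held 2.43 and 1.59 CPM and shEZH2 held 19.4 and 22.2 CPM. The log2 fold change was 3.36 ± 0.17 (adjusted p = 2.1e-07), the largest among the 31 members in that comparison. In EOL-1 the gene started high, at 103 and 102 CPM, and was 94.5 and 90.6 CPM with sgEZH2. That small fall of 0.15 ± 0.04 on the log2 scale passed the test (adjusted p = 0.0098), but not without sgEV library 1 (adjusted p = 0.101) or 2 (0.0623). The difference of the EZH2 effects was 3.51 ± 0.16 (adjusted p = 5.6e-10). In the sgcMyc table CYFIP2 was 9.52 and 10.9 CPM in sgEV, 13.6 and 12.5 CPM with guide 1, and 12.2 and 10.7 CPM with guide 5. Guide 1 lay above the control by 0.35 ± 0.13 at the edge of the threshold, and this call was lost with DESeq2 (adjusted p = 0.328) and without either sgEV library (0.289 and 0.0826) or either guide 1 library (0.238 and 0.098). Guide 5 overlapped the control (0.17 ± 0.13, adjusted p = 0.35).

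**Figure D1:**
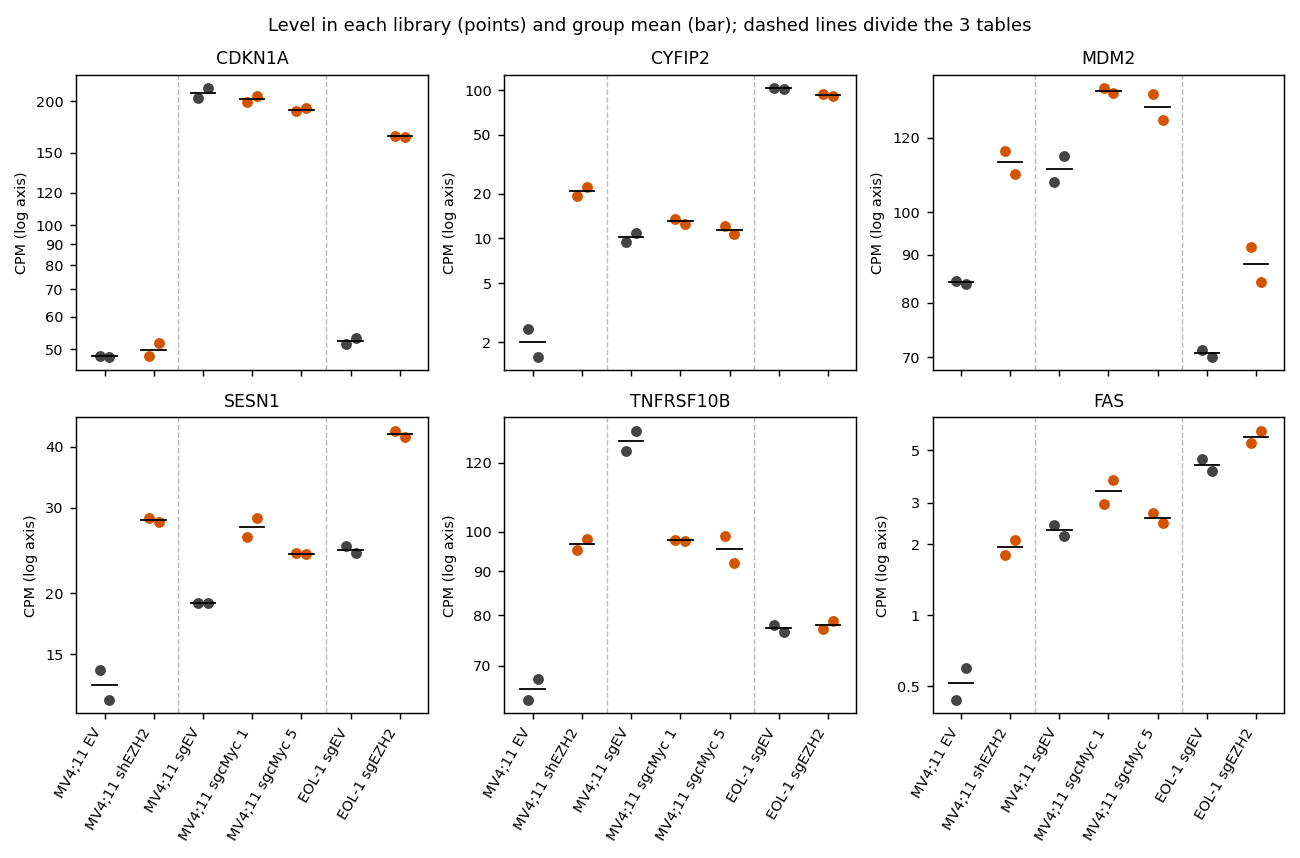
Level of 6 p53 target genes in each library (points, CPM, log axis) with the group mean as a bar, in the 7 groups; dashed lines divide the 3 tables. CDKN1A goes from 51.5 and 53.2 CPM in EOL-1 sgEV to 165 and 164 CPM with sgEZH2, and is level with shEZH2. It is higher still in every group of the sgcMyc table, the control sgEV included (204 and 216 CPM). CYFIP2 rises from 2.43 and 1.59 CPM in EV to 19.4 and 22.2 CPM with shEZH2.

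With shEZH2 in MV4;11, 16 of the 31 members rose and 1 fell, against 13.4% and 14.2% of all 13591 genes tested. The members' share was 51.6% higher and 3.23% lower, and their median log2 fold change was 0.276, beside 0.00243 for all genes tested. In 24 members both shEZH2 libraries lay above both EV libraries, and in 2 they lay below. These are 77.4% and 6.45% of the members, beside 32.1% and 31.7% of all genes tested. FAS is among both the 16 and the 24, and it passed the filter through the shEZH2 libraries alone. Of the 10 myelomonocytic markers 2 rose and 3 fell. Bulk RNA cannot tell fewer cells of a kind from less RNA per cell.

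Genes of p53 feedback rose in 4 of 7 cases, beside 13.4% of all genes tested. The groups by role are small, and differences between them were not tested. MDM2 went from 84.5 and 83.8 CPM to 116 and 110 CPM, a log2 fold change of 0.42 ± 0.05 (adjusted p = 0.000111). TP53INP1, a p53-induced nuclear protein, went from 3.37 and 3.77 CPM to 8.69 and 8.25 CPM (1.25 ± 0.16). Its groups were well apart at a low level. The phosphatase gene PPM1D (0.29 ± 0.07) and the cyclin gene CCNG1 (0.15 ± 0.04) rose by less. CCNG1 had 254 and 269 CPM in EV and 290 and 288 CPM with shEZH2. MDM4, the MDM2 relative that restrains p53, was 17.0 and 17.5 CPM against 20.4 and 19.8 CPM and missed the threshold (0.22 ± 0.08, adjusted p = 0.0711).

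Genes of death signalling rose in 5 of 10 cases, beside 13.4% of all genes tested. FAS is among them, and it passed the filter through the shEZH2 libraries alone. FAS, a death receptor, rested on few counts: 7 and 9 in EV against 29 and 33 with shEZH2, or 0.437 and 0.595 CPM against 1.80 and 2.08 CPM (1.90 ± 0.39). TNFRSF10B, a receptor for the death ligand TRAIL, went from 63.9 and 67.6 CPM to 95.3 and 98.0 CPM (0.56 ± 0.05). RPS27L, a ribosomal protein relative, went from 81.0 and 89.4 CPM to 126 and 126 CPM (0.57 ± 0.06). In these genes the libraries of each group lay close together compared with the step between groups. The RNA-binding protein gene ZMAT3 rose from 29.3 and 23.7 CPM to 45.4 and 43.4 CPM (0.74 ± 0.09). NINJ1, which encodes a membrane protein of dying cells, was the member that fell, from 16.0 and 17.8 CPM to 13.1 and 13.3 CPM (-0.35 ± 0.10). TP53I3, PHLDA3, AEN and TRIAP1 did not pass.

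Repair and nucleotide supply genes rose in 4 of 5 cases, beside 13.4% of all genes tested. RRM2B, the p53-inducible subunit of ribonucleotide reductase, went from 99.2 and 93.9 CPM to 151 and 152 CPM (0.65 ± 0.05). The helicase gene ASCC3 went from 113 and 101 CPM to 150 and 144 CPM (0.46 ± 0.06). Both stepped up by more than their replicates differed. The excision repair genes XPC (0.28 ± 0.06) and DDB2 (0.29 ± 0.07) rose by less, and the translesion polymerase gene POLH did not pass, at 18.5 and 15.6 CPM against 15.9 and 16.0 CPM. Of 4 metabolic genes 2 rose. SESN1, a stress protein that restrains the mTOR pathway, went from 13.9 and 12.1 CPM to 28.5 and 28.0 CPM (1.12 ± 0.09), and the mitochondrial reductase gene FDXR went from 26.8 and 24.3 CPM to 35.5 and 33.9 CPM (0.44 ± 0.08). Among 5 arrest genes only GADD45A rose, from 7.99 and 10.2 CPM to 13.6 and 14.3 CPM (0.62 ± 0.13). BTG2, PLK2, PLK3 and CDKN1A did not pass, with BTG2 at 12.2 and 12.2 CPM against 11.6 and 11.5 CPM.

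Of these 17 calls, 10 held under all 12 alternatives run: those of MDM2, SESN1, RRM2B, ZMAT3, CYFIP2, FDXR, TP53INP1, TNFRSF10B, RPS27L and ASCC3. DESeq2 did not make the other 7, those of GADD45A (adjusted p = 0.0718), FAS (0.0669), CCNG1 (0.0694), XPC (0.0901), DDB2 (0.127), PPM1D (0.171) and NINJ1 (0.309). Without shEZH2 library 1 the calls of XPC (0.0686), CCNG1 (0.177) and NINJ1 (0.0764) were lost, without shEZH2 library 2 those of PPM1D (0.122), CCNG1 (0.142) and NINJ1 (0.0587), and without EV library 2 that of NINJ1 (0.112). Without EV library 2 AEN (0.0326) and FBXO22 (0.0124) were gained, and without shEZH2 library 2 PLK2 (0.00474). Spike-in scaling lost XPC and PPM1D (0.109 each), DDB2 (0.083) and CCNG1 (0.359).

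With sgEZH2 in EOL-1, 16 of 31 members also rose and 1 fell, against 15.1% and 11.8% of 13890 genes tested. The median of the members was 0.152, beside 0.00511 for all genes tested. Both sgEZH2 libraries lay above both sgEV libraries in 20 members (64.5%) and below in 4 (12.9%), beside 32.2% and 29.9% of all genes tested. Of the 10 myelomonocytic markers 8 rose, and their part in these values was not tested. Arrest genes rose in 4 of 5 cases here. Beside CDKN1A they were BTG2, an antiproliferative factor, from 4.83 and 4.42 CPM to 8.22 and 7.98 CPM (0.81 ± 0.12), the polo-like kinase gene PLK2 from 2.34 and 3.01 CPM to 4.93 and 5.21 CPM (0.91 ± 0.16), and GADD45A from 5.78 and 6.42 CPM to 11.2 and 10.7 CPM (0.84 ± 0.10). The groups did not overlap in any of these 4 genes, although 3 of them stood at low levels.

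Of the 4 metabolic genes tested 3 rose, beside 15.1% of all genes tested. SESN1 went from 24.97 and 24.2 CPM to 43.1 and 41.9 CPM (0.79 ± 0.06), FDXR from 20.1 and 22.3 CPM to 26.8 and 28.5 CPM (0.38 ± 0.07), and TIGAR, an enzyme that slows glycolysis, from 19.1 and 19.4 CPM to 24.99 and 24.7 CPM (0.37 ± 0.06). PANK1, a kinase of coenzyme A synthesis, did not pass. Feedback genes rose in 2 of 7 cases. MDM2 went from 71.3 and 70.1 CPM to 91.7 and 84.2 CPM (0.32 ± 0.05), and TP53INP1 from 3.40 and 2.29 CPM to 4.74 and 4.59 CPM (0.72 ± 0.18). CCNG1 was flat, at 272 and 269 CPM against 267 and 266 CPM.

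Of the 10 death genes 6 rose and 1, CYFIP2, fell, beside 15.1% and 11.8% of all genes tested. ZMAT3 went from 12.3 and 12.8 CPM to 20.7 and 19.6 CPM (0.68 ± 0.08) and RPS27L from 73.3 and 69.9 CPM to 86.0 and 88.4 CPM (0.28 ± 0.04). Smaller steps were those of FAS (0.39 ± 0.14), of TP53I3, an oxidoreductase (0.38 ± 0.13), of the apoptosis-enhancing nuclease AEN (0.21 ± 0.05) and of PHLDA3, a repressor of AKT signalling (0.18 ± 0.05). TNFRSF10B overlapped its control, at 78.0 and 76.6 CPM against 77.1 and 78.9 CPM. In the repair group RRM2B alone rose, from 110 and 113 CPM to 128 and 116 CPM (0.13 ± 0.04).

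Of these 17 calls, 10 held under all 12 alternatives: MDM2, CDKN1A, SESN1, ZMAT3, GADD45A, FDXR, BTG2, PLK2, TIGAR and RPS27L. DESeq2 did not make those of CYFIP2 (adjusted p = 0.0989), AEN (0.0988), TP53INP1 (0.152), RRM2B (0.264), PHLDA3 (0.314), TP53I3 (0.455) and FAS (0.472). Leaving out sgEV library 1 lost RRM2B (0.22), TP53I3 (0.272) and PHLDA3 (0.142), and leaving out sgEV library 2 lost RRM2B (0.0993), TP53INP1 (0.104), FAS (0.259) and PHLDA3 (0.0798). Without sgEZH2 library 1 RRM2B was lost (0.343), and without library 2 TP53I3 (0.163) and FAS (0.198), while ASCC3 (0.00215) and XPC (0.0434) were gained.

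**Figure D2:**
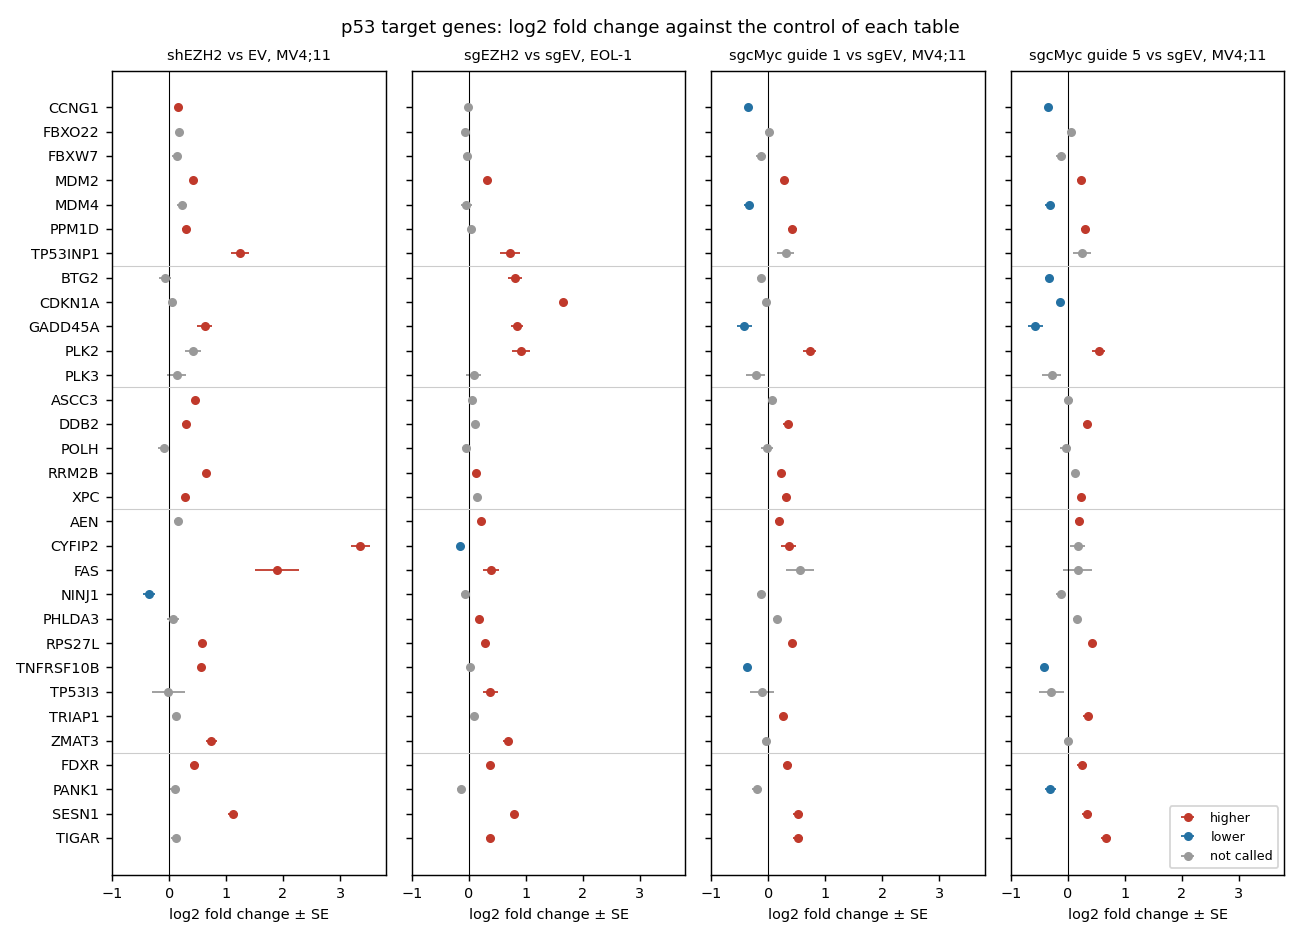
Log2 fold change of the 31 p53 target genes (rows) in each of the 4 depletions against its own control; points are the edgeR estimates and bars are 1 SE, with genes called higher in red, called lower in blue and not called in grey, and grey lines divide the groups by role. MDM2, SESN1, FDXR and RPS27L lie to the right of 0 and are called in each comparison.

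Between the 2 lines, 9 members rose in both EZH2 comparisons, which is 56.2% of the 16 higher in each line: MDM2, SESN1, RRM2B, ZMAT3, GADD45A, FDXR, TP53INP1, FAS and RPS27L. Of all genes tested in both, 448 rose in both, which is 26% of those higher in MV4;11 and 23.9% of those higher in EOL-1. FAS counts among the 9 members although it passed the filter in MV4;11 through the shEZH2 libraries alone. DESeq2 did not make the calls of GADD45A in MV4;11, of RRM2B and TP53INP1 in EOL-1, or of FAS in either line. A test of the difference of effects in 1 fit over both tables called 12 members, 10 with the higher effect in MV4;11 and 2 with the higher effect in EOL-1, against 12.5% and 14.1% of 13543 genes. The members' median difference was 0.132, beside 0.005 for all genes. The 2 were CDKN1A and BTG2 (-0.88 ± 0.15). Beside CYFIP2, the effect was higher in MV4;11 for FAS (1.52 ± 0.35), TNFRSF10B (0.55 ± 0.06), RRM2B (0.53 ± 0.07), ASCC3 (0.41 ± 0.09) and RPS27L (0.29 ± 0.07). These 6 and the 2 arrest genes held under all 14 alternatives.

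The other 4 differences were small and were lost in places. SESN1 (0.33 ± 0.10) was lost with DESeq2 (adjusted p = 0.075) and without EV library 2 (0.167), shEZH2 library 1 (0.0812) or 2 (0.0633), EOL-1 sgEV library 1 (0.0785) or sgEZH2 library 2 (0.058). PPM1D (0.26 ± 0.09) was lost with DESeq2 (0.122) and without 6 of the 8 libraries in turn: EV library 1 (0.0796) or 2 (0.107), shEZH2 library 2 (0.246), sgEV library 1 (0.156) or 2 (0.0668), and sgEZH2 library 2 (0.124). FBXO22 (0.25 ± 0.08), an F-box protein gene called in neither line alone, was lost with DESeq2 (0.0652) and without EV library 1 (0.132), either shEZH2 library (0.0949 and 0.097), sgEV library 1 (0.132) or sgEZH2 library 2 (0.0803). CCNG1 (0.18 ± 0.05) was lost without either shEZH2 library (0.064 and 0.0553) or sgEV library 1 (0.0657). Gained were NINJ1 (0.0453) and TIGAR (0.0435) without EV library 1, PLK2 (0.0426) without shEZH2 library 1 and TP53INP1 (0.0305) without sgEV library 2. The line, hairpin against guide, and the level of the EZH2 transcript (13.06% against 38.26% of control) cannot be told apart in this comparison.

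**Figure D3:**
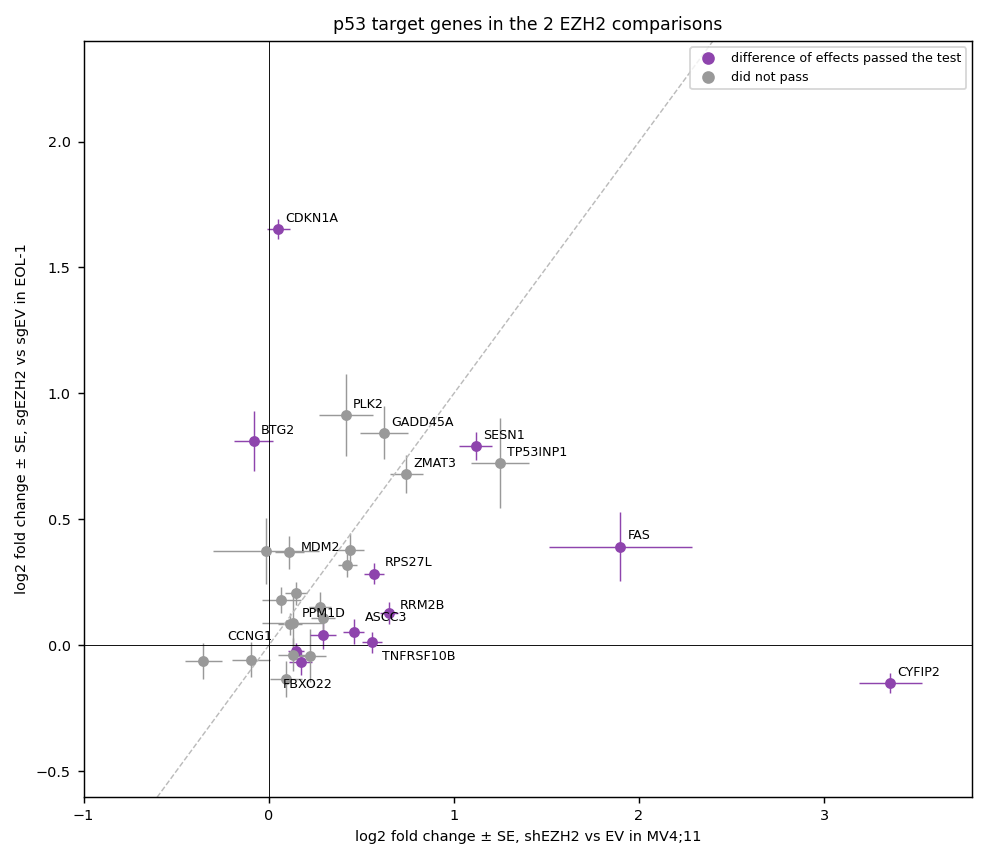
Log2 fold change of each p53 target gene with shEZH2 in MV4;11 (x axis) and with sgEZH2 in EOL-1 (y axis), with 1 SE bars; purple points passed the test of the difference, grey points did not, and the dashed line marks equal effects. CYFIP2 (3.36 and -0.15) and CDKN1A (0.05 and 1.65) lie farthest from that line.

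In the libraries labelled sgcMyc, 13 members were higher and 4 lower than sgEV with guide 1, and 11 higher and 7 lower with guide 5. All genes gave 16.2% and 16% with guide 1 and 15.7% and 15.5% with guide 5, of 13948 tested. The members' shares were 41.9% and 12.9% with guide 1 and 35.5% and 22.6% with guide 5, with medians of 0.149 and 0.127. With guides 1 and 5, 16 and 15 members (51.6% and 48.4%) lay wholly above sgEV, beside 34.8% and 32.4% of all genes tested. Wholly below lay 10 members (32.3%) with each guide, beside 34.6% and 32.7%, so that share is near that of all genes. Both guides share the same sgEV libraries, so their values are given side by side. Higher with both were MDM2, SESN1, FDXR, XPC, DDB2, PPM1D, AEN, PLK2, TIGAR, RPS27L and TRIAP1. Lower with both were MDM4, GADD45A, CCNG1 and TNFRSF10B. The shares of all genes higher or lower with both guides were not counted. Of the 10 myelomonocytic markers 4 rose and 1 fell with guide 1, and 3 and 1 with guide 5.

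TIGAR went from 16.1 and 15.6 CPM in sgEV to 22.6 and 22.9 CPM with guide 1 (0.52 ± 0.09) and 25.8 and 24.7 CPM with guide 5 (0.67 ± 0.09). RPS27L went from 91.9 and 96.4 CPM to 120 and 133 CPM (0.42 ± 0.06) and 123 and 130 CPM (0.43 ± 0.06). For both genes every guide library lay above both controls. SESN1 went from 19.1 and 19.1 CPM to 26.1 and 28.6 CPM (0.52 ± 0.08) and 24.2 and 24.0 CPM (0.34 ± 0.09). PLK2 went from 9.82 and 10.3 CPM to 16.4 and 16.9 CPM (0.72 ± 0.12) and 15.8 and 13.5 CPM (0.54 ± 0.12), and PPM1D from 31.0 and 33.6 CPM to 44.4 and 42.3 CPM (0.42 ± 0.07) and 40.5 and 39.2 CPM (0.30 ± 0.07). All of these guide libraries lay above both sgEV libraries, and none of these 3 genes differed between the guides by the test. MDM2 was 108 and 115 CPM in sgEV, 136 and 134 CPM with guide 1 (0.28 ± 0.05) and 134 and 125 CPM with guide 5 (0.22 ± 0.05). The repair genes XPC (0.30 and 0.23) and DDB2 (0.34 and 0.33) were higher with guides 1 and 5, as were FDXR (0.34 and 0.24), the apoptosis inhibitor gene TRIAP1 (0.26 and 0.34) and AEN (0.18 and 0.20). RRM2B was higher with guide 1 alone among the calls (0.21 ± 0.05), and the guides' own difference for it was not called.

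Of the 4 genes lower with both guides, CCNG1 went from 311 and 299 CPM to 238 and 240 CPM (-0.35 ± 0.04) and 237 and 244 CPM (-0.35 ± 0.04). TNFRSF10B went from 124 and 131 CPM to 97.8 and 97.6 CPM (-0.38 ± 0.06) and 98.8 and 92.1 CPM (-0.42 ± 0.06). In both genes the guide libraries lay wholly below the control, as in 34.6% and 32.7% of all genes tested with guides 1 and 5. MDM4 went from 28.1 and 29.1 CPM to 23.1 and 21.8 CPM (-0.35 ± 0.08) and 23.5 and 22.2 CPM (-0.32 ± 0.08), and GADD45A from 15.1 and 18.5 CPM to 11.2 and 13.8 CPM (-0.42 ± 0.13) and 10.8 and 11.8 CPM (-0.57 ± 0.14). Guide 5 alone also had calls for BTG2 (-0.34 ± 0.06), PANK1 (-0.31 ± 0.09) and CDKN1A. GADD45A, CCNG1 and TNFRSF10B were thus higher with shEZH2 and lower with the guides, each against its own control. The difference between these 2 depletions was not tested.

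Under all 15 alternatives 7 of 17 calls held with guide 1 (SESN1, XPC, PPM1D, CCNG1, PLK2, TIGAR and RPS27L) and 3 of 18 with guide 5 (TIGAR, RPS27L and TRIAP1). Without sgEV library 1, 7 members were higher with guide 1 and 4 with guide 5; without sgEV library 2, 8 and 7. DESeq2 did not make 6 of the calls with guide 1 and 10 of those with guide 5. The call of MDM2 was lost without sgEV library 1 (adjusted p = 0.0572 with guide 1 and 0.139 with guide 5). That of GADD45A was lost without sgEV library 2 (0.298 and 0.115), as was that of MDM4 (0.0611 and 0.0834) and of DDB2 (0.0713 and 0.0745). With spike-in scaling, 1 lower call was left for each guide, CCNG1 with guide 1 and GADD45A with guide 5; TNFRSF10B stood at adjusted p = 0.0594 and 0.0768. That scaling moved the median of all genes by 0.147 with guide 5. Lower calls over all genes also went from 2233 to 1015 with guide 1 and from 2162 to 828 with guide 5.

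Calls over all genes also fell in number when 1 library was left out: 2255 genes were higher with guide 1, and 1243 to 1428 without 1 of the 4 libraries compared. With guide 5 2192 were higher, and 1174 and 1254 without sgEV library 1 or 2. Further member calls with guide 1 that were lost in this way were those of RRM2B (adjusted p = 0.118 and 0.0649 without sgEV library 1 or 2, 0.12 without guide 1 library 1), FDXR (0.11 without sgEV library 1, 0.0632 without guide 1 library 2) and AEN and TRIAP1, which were lost without any of the 4 libraries compared (0.139 to 0.23 and 0.0648 to 0.118). The fold changes moved little, from 0.18 to between 0.16 and 0.20 for AEN and from 0.26 to between 0.23 and 0.28 for TRIAP1. GADD45A was also lost without guide 1 library 1 (0.249) and MDM4 without library 2 (0.0718). With guide 5, leaving out sgEV library 1 or 2 lost the calls of SESN1 (0.0712 and 0.071), XPC (0.0601 and 0.0968), AEN (0.195 and 0.117) and PANK1 (0.129 and 0.13), and leaving out library 1 also lost those of FDXR (0.314), PPM1D (0.111), PLK2 (0.0518) and MDM4 (0.051). SESN1 kept a log2 fold change of 0.34 in both, while that of FDXR went from 0.24 to 0.15. Without guide 5 library 2, FDXR (0.0694), AEN (0.0545) and PANK1 (0.115) were lost and RRM2B (0.00209) and TP53INP1 (0.0167) were gained. Guide 1 libraries entered the same fit, and without 1 or the other FDXR (0.0685 and 0.0657) and AEN (0.0655 and 0.0629) were lost with guide 5. Without either guide 5 library, BTG2 was called lower with guide 1 (0.0489 and 0.0491).

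The guides themselves gave no called difference in any member, 0 higher and 0 lower, against 0.0789% and 0.33% of all genes with edgeR. At an unadjusted p under 0.05 edgeR had 2 members and DESeq2 0. Without guide 5 library 1, ASCC3 was called lower with guide 5 (adjusted p = 0.029).

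**Figure D4:**
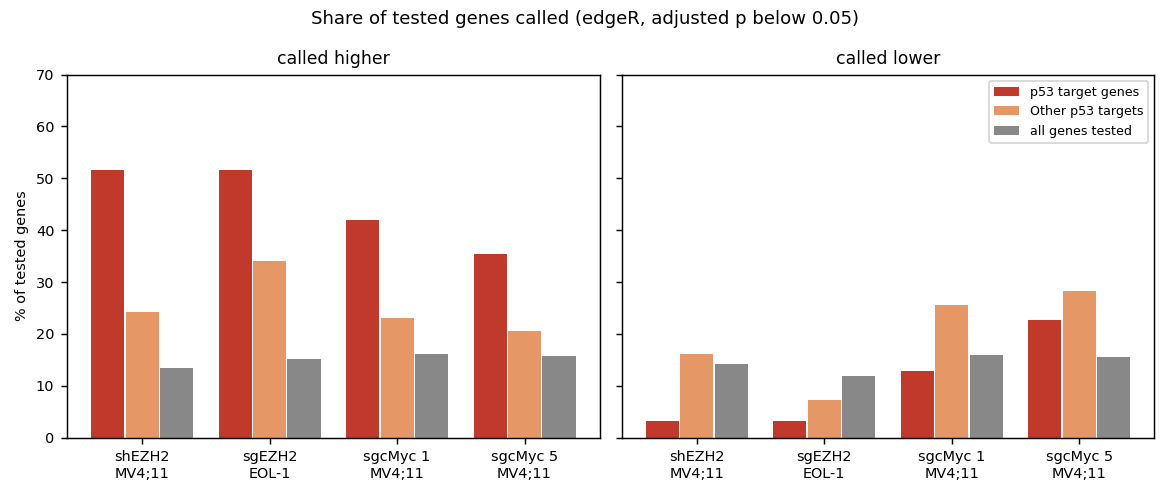
Bars give the percent of tested genes called higher (left) or lower (right) in each of the 4 depletions, for the 31 p53 target genes, the list of other p53 targets and all genes tested. With shEZH2 and with sgEZH2 51.6% of the members were higher, beside 13.4% and 15.1% of all genes.

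Across the 4 depletions, MDM2, SESN1, FDXR and RPS27L were higher in all, which is 12.9% of the 31, beside 1.28% of 12421 genes tested in all 4. Both guide comparisons share the sgEV libraries. Of the 4, only RPS27L held under every alternative with both guides. DESeq2 did not make the calls of FDXR with guides 1 and 5 (adjusted p = 0.0747 and 0.253). PLK3, POLH, FBXO22 and FBXW7 were called in none, and the share of all genes called in none was not counted. PLK3, a stress kinase gene, ranged from 4.90 to 7.05 CPM over the 14 libraries. FBXW7, the receptor of a ubiquitin ligase, ranged from 21.9 to 29.3 CPM.

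The 2 MV4;11 controls did not stand at the same level of these genes. sgEV exceeded EV 4.36-fold in CDKN1A, 5.07-fold in CYFIP2, 5.15-fold in BTG2, 4.43-fold in FAS and 2.86-fold in TP53INP1. Over 1.5-fold higher were 13 of 31 members, and none was lower by as much, with TIGAR at the edge (23.78 CPM in EV and 15.85 CPM in sgEV, a ratio of 0.667). The members' median ratio was 1.28, beside 1.01 for 12257 genes with at least 1 CPM, of which 13.7% were over 1.5-fold higher and 6.36% lower. The tables are separate and these levels were not tested. Each depletion was therefore measured from a different starting level of the same genes: CYFIP2 with shEZH2 reached 19.4 and 22.2 CPM from 2.43 and 1.59 CPM, where sgEV held 9.52 and 10.9 CPM before any guide effect.

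Of 23 genes that regulate p53 or are related to it, 4 rose and 2 fell with shEZH2 (17.4% and 8.7%, beside 13.4% and 14.2% of all genes tested). The share that rose is near that of all genes. Among the risen were USP7, a deubiquitinase of p53 and MDM2 (0.28), and RPL5, a ribosomal protein that binds MDM2 (0.30). TP73, a p53 relative, fell from 32 and 35 counts to 4 and 3 (-3.25 ± 0.44); it passed the filter through EV alone. In EOL-1 3 of 22 tested rose and 7 fell (13.6% and 31.8%, beside 15.1% and 11.8% of all genes), with TP53BP1 (-0.53), HUWE1 (-0.50), TP53BP2 (0.40) and PPP1R13B (1.22) foremost. With guides 1 and 5, 0 rose by edgeR and by DESeq2 (with each guide, 10 of 22 had an unadjusted p under 0.05 by edgeR, in either direction), and 7 and 8 of 22 fell (31.8% and 36.4%, beside 16% and 15.5% of all genes), including the kinase gene HIPK2 (-0.71 and -0.75), RPL5 (-0.33 and -0.32) and PRMT5 (-0.31 and -0.21); spike-in scaling left 2 falls for each guide.

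A further list held 51 p53 targets. With shEZH2, 9 of 37 tested rose and 6 fell, or 24.3% and 16.2% beside 13.4% and 14.2% of all genes (median -0.0703); with spike-in scaling it was 4 and 6. TRIM22 (0.72 ± 0.05) and EDA2R, a death receptor of the TNF family (1.35 ± 0.18), rose and CD82, a tetraspanin, fell (-1.23 ± 0.07). In EOL-1, 14 of 41 rose and 3 fell, or 34.1% and 7.32% beside 15.1% and 11.8% of all genes (median 0.114), led by PLCL2 (2.71), TAP1 (0.55), CD82 (0.61) and the apoptosome gene APAF1 (0.52). With guides 1 and 5, 9 and 8 of 39 rose (23.1% and 20.5%, beside 16.2% and 15.7% of all genes) and 10 and 11 fell (25.6% and 28.2%, beside 16% and 15.5%), with SESN2 (-1.68 and -1.79) and SYTL1 (-1.26 and -1.35) lower and the lysosomal fucosidase gene FUCA1 higher (1.10 and 0.96). For the difference between the lines, 2 of 37 were higher in MV4;11 and 10 lower, CD82 foremost (-1.83). These are 5.41% and 27% of the list, beside 12.5% and 14.1% of all genes, with a median of -0.106. The 31 members went the other way, with 10 higher, 2 lower and a median of 0.132.

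Among the BCL2 family genes that p53 uses to start cell death, BAX rose with shEZH2 from 115 and 123 CPM to 144 and 145 CPM (0.29 ± 0.05, adjusted p = 0.00136). It did not pass in EOL-1 (0.09) or with the guides (0.10 and 0.14). BBC3, which encodes PUMA, rose with shEZH2 (0.33 ± 0.11, adjusted p = 0.0475), did not pass in EOL-1 (0.15) and fell with the guides from 38.2 and 33.9 CPM to 23.6 and 24.4 CPM and to 23.0 and 23.3 CPM (-0.59 and -0.64). PMAIP1, which encodes NOXA, was at 19.9 and 18.2 CPM against 17.9 and 18.3 CPM with shEZH2 and did not pass in EOL-1 (-0.10). With the guides PMAIP1 fell from 33.9 and 32.6 CPM to 15.1 and 14.3 CPM and to 13.8 and 12.3 CPM (-1.18 and -1.35). TRIM22, an interferon-responsive ligase gene, was called higher in all 4 comparisons (0.72 with shEZH2, 0.24 in EOL-1, 0.45 and 0.23 with the guides).

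Of 22 cell cycle genes that p21 and the DREAM complex can lower, 9 fell with shEZH2 and 13 in EOL-1. In either comparison 0 rose by edgeR or DESeq2. CDKN1A, which encodes p21, was called higher in EOL-1 and not called with shEZH2. The route of these falls was not tested. At an unadjusted p under 0.05 edgeR had 12 and 15 of the 22 in either direction. The falls were 40.9% and 59.1% of the list, beside 14.2% and 11.8% of all genes. The medians were -0.155 and -0.156. With shEZH2 the 9 that fell had CDC20 (-0.93 ± 0.06), BIRC5 (-0.43 ± 0.05), CCNB1 (-0.33 ± 0.05) and PLK1 (-0.22 ± 0.04) foremost; spike-in scaling left 6 falls. In EOL-1 the foremost were FOXM1 (-0.32), CENPF (-0.39), PLK1 (-0.18) and BUB1B (-0.20). CDC20 differed between the lines by -0.87 ± 0.07. With guides 1 and 5, 7 and 6 rose (31.8% and 27.3%, beside 16.2% and 15.7% of all genes) and 1 fell, with MYBL2 (0.24 and 0.34), CDC20 (0.23 and 0.34) and BUB1 (0.28 and 0.23) higher. Spike-in scaling gave 5 and 10 higher and 0 lower.

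Exons of FAS, FBXO22, MDM2, POLH, TNFRSF10B, TP53I3 and XPC overlap a gene on the other strand in GENCODE, over 4 (POLH) to 1917 bases (FBXO22). Whether counting used strand is not given in the sources used here. Reads within these shared bases therefore cannot be told apart from reads of the partner gene. How much such reads add to the counts of these genes was not tested.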

How the data were processed

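RNA-seq libraries were grouped by their titles. Per the file headers, each of 3 tables holds a raw and a normalised column per library, and shorter column names were matched to titles by inference from target, guide and replicate number. The raw columns are estimated counts as deposited by the authors; RSEM, DESeq and the build hg19 are named in the submitters' processing notes. The normalised columns are log2 values made by the authors by a method that the labels and headers do not state. The EOL-1 table also holds a deposited mean signal per gene, which was not used.

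Estimated counts were rounded, 56 spike-in rows of each MV4;11 table were set aside, and genes were tested within each table with edgeR 4.0.16 (R 4.3.3; filterByExpr, TMM, robust quasi-likelihood test, Benjamini-Hochberg adjustment over all genes tested, threshold 0.05). The sgcMyc table was fitted with 3 groups. The difference between lines was an interaction in 1 fit over the genes in both tables. CPM are TMM-scaled. SE is the log2 fold change divided by the root of the F statistic. Alternatives were RLE factors, DESeq2 1.42.0, no filter, a mean of at least 50 counts, no robust step, limma 3.58.1 on the deposited log2 values, spike-in scaling, only the 2 groups compared, a replicate block and leaving out each library. The code was tested on simulated data.

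The members and lists were chosen with earlier results of these data known. All listed members may be named; of each further list, the 4 called genes with the smallest p per comparison, and BAX, BBC3, PMAIP1 and TRIM22 throughout. Replicates differed by more than sampling noise (chi-square per degree of freedom 1.47 to 5.467). One gene of the list of p53 regulators is not reported here and was left out of its counts.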

Additional observations from a re-analysis of the deposited data

Results flagged for a closer look

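The EZH2 effects on 12 p53 target genes differed between MV4;11 and EOL-1 by the test of the difference itself (edgeR, adjusted p below 0.05). The log2 differences, MV4;11 minus EOL-1, were -1.59 for CDKN1A and -0.88 for BTG2, where the effect was higher in EOL-1. They were 0.18 for CCNG1, 0.25 for FBXO22, 0.26 for PPM1D, 0.29 for RPS27L, 0.33 for SESN1, 0.41 for ASCC3, 0.53 for RRM2B, 0.55 for TNFRSF10B, 1.52 for FAS and 3.51 for CYFIP2, where it was higher in MV4;11. Those of CCNG1, FBXO22, PPM1D and SESN1 were lost under some alternatives. The lines also differ in the depletion method, which cannot be told apart from the line.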

How the results depend on the processing

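Scaling by RLE factors, no filter, a mean of at least 50 counts, no robust step, limma, only the 2 groups compared and the replicate block kept every count of called members within 1.5 times. DESeq2 called 10 members higher and 0 lower with shEZH2 (16 and 1 with edgeR), 10 and 0 in EOL-1 (16 and 1), 2 lower with guide 1 (4), and 5 higher and 3 lower with guide 5 (11 and 7); over all genes it called 833 and 856 with shEZH2 against 1824 and 1934, and 998 and 646 in EOL-1 against 2099 and 1639. With guide 1, DESeq2 called 1353 of all genes higher and 1252 lower, against 2255 and 2233 with edgeR. With guide 5 it called 1300 and 1230, against 2192 and 2162. Spike-in scaling left 1 member lower with guide 1 and 1 with guide 5, and turned CDKN1A with guide 5 to 0.0129. Over all genes that scaling called 805 higher and 1407 lower with shEZH2, 2087 and 1015 with guide 1, and 2984 and 828 with guide 5. Of all called genes, the share called higher went with that scaling from 48.5 to 36.4% with shEZH2, from 50.2 to 67.3% with guide 1 and from 50.3 to 78.3% with guide 5.

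Leaving out each library in turn gave 14 to 18 members higher and 0 to 1 lower with shEZH2, 7 to 13 and 2 to 5 with guide 1, 4 to 11 and 3 to 7 with guide 5, 12 to 16 and 0 to 1 in EOL-1, 0 and 0 to 1 between the guides, and 6 to 10 and 2 to 4 for the difference between lines. An arm left with 1 library borrows its spread from the other groups. The number of all genes called also changed in these fits, so the changes in member counts are not particular to the members.

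Replicate numbers are shared across groups, but same-numbered libraries hardly deviated together (correlation 0.0698 for EV and shEZH2, 0.00155 and -0.0225 for sgEV with guides 1 and 5, -0.119 in EOL-1), so the numbers do not establish pairing. The replicate block gave 19 members higher with shEZH2, adding PLK2, AEN and FBXO22 (adjusted p = 0.0177, 0.0438 and 0.0248), and 16 in EOL-1. Over all genes the block called 2352 higher with shEZH2 (1824 without it) and 2077 in EOL-1 (2099 without it). With crossed numbers in EOL-1, an alternative added after seeing the data, 16 members rose and 1 fell. Depth limits FAS in EV, at 7 and 9 counts.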
